A study of Mus musculus with 6 samples.

Results

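The 40 genes described here code for glucose and lactate transporters, the enzymes of glycolysis, the HIF pathway and other genes that hypoxia induces. They were taken by name from a table of 21139 genes, which lists each of the 40 names once. All 40 passed the filter on low counts that left 13507 genes for testing. The lowest count of any of them in any library was 165, for Ankrd37. They fall into 21 glycolytic genes (4 transporters, 15 enzymes and 2 regulators of flux), 15 other hypoxia-induced genes and 4 genes of the HIF pathway. RNA came from spleen CD4+ T cells of C57BL/6J mice, stimulated for 2 days with antibodies against CD3 and CD28. CD3 is part of the antigen receptor complex, and CD28 is a co-stimulatory receptor. In 3 libraries the cells also had CpdA, an agonist of Gpr120 per the series' design, at 20 µM (microm in the labels, read here as µM), and in 3 libraries they had medium alone. Gpr120, the product of Ffar4, is a cell surface receptor that long-chain fatty acids activate. The comparison asks how expression differs with the agonist. Any vehicle in the medium group and the number of animals or cultures were not given in the sources used here. Hence p-values reflect the spread among these libraries alone, which may be technical.

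Glycolysis turns glucose into pyruvate, and activated T cells run it at a high rate while releasing much of the pyruvate as lactate. HIF is a transcription factor whose alpha subunit, coded by Hif1a, is hydroxylated by the prolyl hydroxylases Egln1 and Egln3 when oxygen is present and is then marked for degradation by the ubiquitin ligase that contains Vhl. When hydroxylation is low, HIF binds hypoxia response elements, whose core is ACGTG or GCGTG, near genes of glycolysis and of other responses to low oxygen. Antigen receptor and mTORC1 signals also raise HIF in T cells with oxygen present, and MYC drives many of the same glycolytic genes. Hif1a transcript is not a measure of HIF protein or of its activity, and neither was measured here.

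With CpdA, 35 of the 40 genes were lower, 2 were higher and 3 were not called (edgeR's quasi-likelihood test, Benjamini-Hochberg adjusted p under 0.05 over all genes tested). Of all tested genes 33.2% were called, 16.7% lower and 16.5% higher. The 40 genes were chosen with earlier results of these data known, so their share was not tested against that of all genes. The 6 libraries did not overlap between groups for 37 genes that were lower and 2 that were higher, against 21.0% and 22.9% of all tested genes, or 43.9% in either direction. The median log2 fold change was -0.20 over the 40 genes and 0.0004 over all tested genes. The changes were small: the lowest was -0.68, for the aldolase gene Aldoc, and the highest 0.21, for the lactate transporter gene Slc16a1. The other gene that rose was Hif1a itself. In percent of all counts, the 40 genes took 3.85%, 3.86% and 3.84% in the CpdA libraries, against 4.28%, 4.29% and 4.27% in the medium libraries. In bulk RNA, fewer cells with a transcript and less transcript per cell cannot be told apart.

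**Figure D1:**
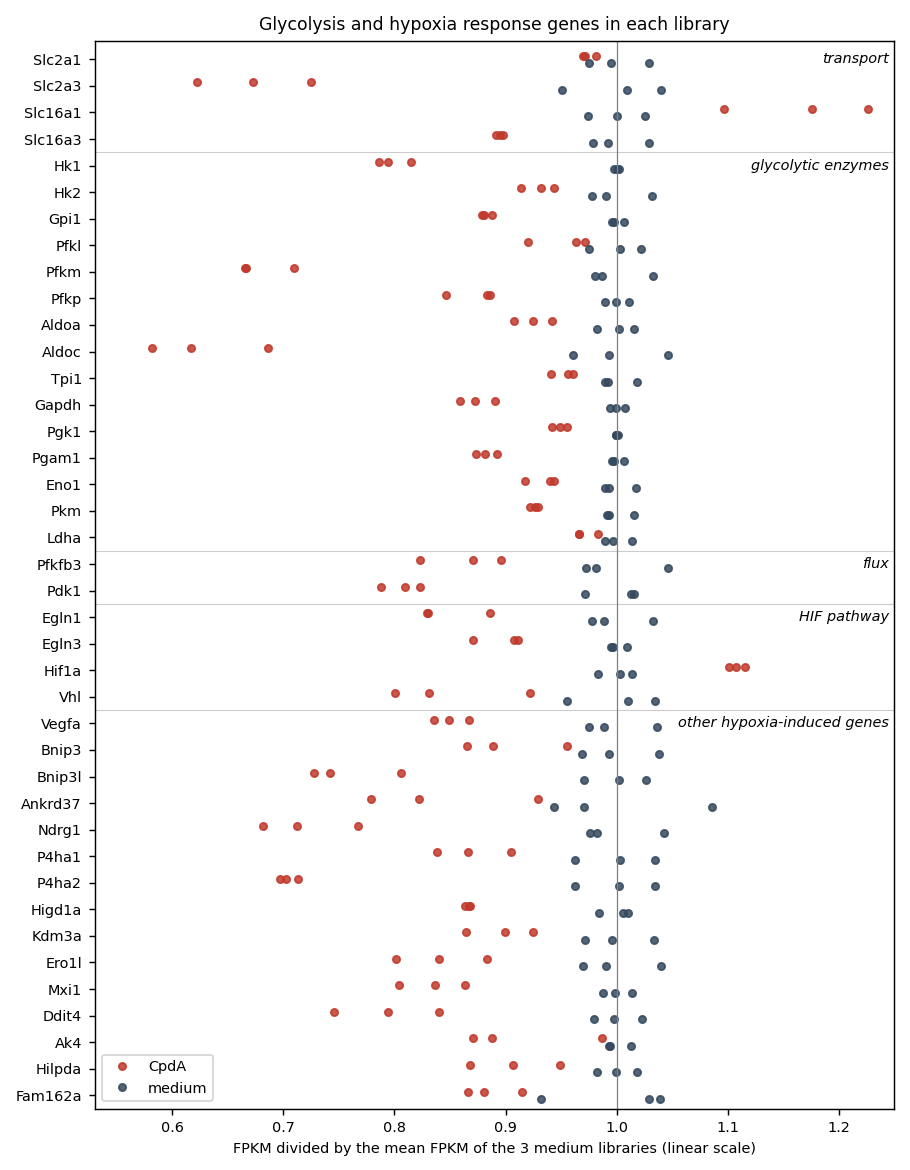
Each row is a gene and each point a library, with CpdA in red and medium in dark blue. The x axis is FPKM (fragments per length and depth) divided by the mean of the 3 medium libraries. The CpdA points lie left of the medium points for 37 genes, right of them for Slc16a1 and Hif1a, and for Slc2a1 the groups overlap, with 1 CpdA point right of the lowest medium point.

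Library totals were 21407172 to 25952169 counts with CpdA and 20247761 to 23640735 counts in medium. Libraries of 1 group differed by more than sampling noise (chi-square per degree of freedom 2.18 to 4.18), and libraries of different groups by more (10.8 to 18.7). CpdA replicate 1 had the lowest value of the 3 CpdA libraries for 21 of the 35 genes called lower, and for 51.6% of all genes called lower. Without it 34 members were lower and 2 higher, and without any other 1 library 34 or 35 were lower and 2 higher. The 7 CD4 T cell markers, among them Cd3e, Cd4 and, at the highest level, Cd5, summed to 2205 to 2243 CPM (counts scaled to library size) with CpdA and 2285 to 2326 CPM in medium, without overlap. Cd5 itself went the other way, with a mean of 638 CPM with CpdA and 573 CPM in medium. Of 10 marker lists of other cells, the summed levels did not overlap for macrophages, led by Cd68 (5 of 6 markers in the table, 4.35 to 4.62 CPM with CpdA and 5.29 to 6.17 CPM in medium), neutrophils, led by Ly6g (2 of 5 in the table, 5.93 to 6.35 CPM with CpdA and 7.35 to 8.30 CPM in medium), plasma cells, led by Sdc1 (3 of 4, 20.96 to 23.4 CPM with CpdA and 24.6 to 25.3 CPM in medium) and dendritic cells, led by Zbtb46 (6 of 6, 6.86 to 8.22 CPM with CpdA and 6.12 to 6.67 CPM in medium). For comparison, the groups did not overlap in either direction for 43.9% of single tested genes. No marker in the table was at 0 in all 6 libraries. The part of these cells in the results below was not tested.

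To describe the core letters of the hypoxia response element near these genes, the RefSeq promoter windows (GRCm38.p6), 300 bases each with the last 50 past the start site, were searched for ACGTG and GCGTG on both strands. Matches that overlap each other, such as those within the MYC-type motif CACGTG, were counted once. RefSeq windows were found for 37 of the 40 genes, 59 windows in all. Of these 79.7% held at least 1 match and 61.0% at least 2, against 61.8% and 29.9% of the 12129 windows of tested genes and 43.8% and 17.3% of all 32851 windows. No window was found for Slc2a3, Bnip3l or Ndrg1, which had log2 fold changes of -0.58, -0.41 and -0.48. Windows of the same gene can overlap and hold the same matches, as for Ak4, and each was counted. The windows of Gpi1, Tpi1 and Vhl held no match. The share was 78.8% for glycolytic windows and 81.8% for windows of the other hypoxia-induced genes. CACGTG was found in 11.9% of the members' windows and 9.89% of those of tested genes. The shares were not tested, and members were listed partly as genes that hypoxia induces. Both motifs hold CG, and windows were not matched for CG content. The windows of tested genes covered 9503 genes found under the same name, while members were also sought under older names. A match is a run of letters and not a bound site, and binding was not measured.

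The stretches before a RefSeq start site of 8 genes are shown because they span the range of responses: P4ha2, Bnip3, Pfkp and Pgk1 were lower with CpdA, Ldha and Slc2a1 were not called, and Slc16a1 and Hif1a were higher. Each runs 5′ to 3′ on the gene's strand and ends at the base before the start site, with matches to the motif in capitals. The stretches were chosen to hold matches.
P4ha2: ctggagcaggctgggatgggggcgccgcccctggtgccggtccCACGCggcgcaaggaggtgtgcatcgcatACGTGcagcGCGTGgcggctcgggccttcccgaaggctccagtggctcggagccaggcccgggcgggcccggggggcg
Bnip3: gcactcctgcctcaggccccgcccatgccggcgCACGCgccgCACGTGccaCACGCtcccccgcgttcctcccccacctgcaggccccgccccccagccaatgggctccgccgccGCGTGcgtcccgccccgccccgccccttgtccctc
Pfkp: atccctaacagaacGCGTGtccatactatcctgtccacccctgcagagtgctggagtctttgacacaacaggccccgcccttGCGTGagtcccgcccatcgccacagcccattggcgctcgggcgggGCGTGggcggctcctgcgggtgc
Pgk1: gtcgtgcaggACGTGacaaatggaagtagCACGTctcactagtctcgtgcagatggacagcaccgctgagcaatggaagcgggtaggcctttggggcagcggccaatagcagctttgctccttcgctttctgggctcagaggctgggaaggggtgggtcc
Ldha: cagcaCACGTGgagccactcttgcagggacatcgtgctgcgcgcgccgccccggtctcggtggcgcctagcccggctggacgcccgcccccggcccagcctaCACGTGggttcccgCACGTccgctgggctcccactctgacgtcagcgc
Slc2a1: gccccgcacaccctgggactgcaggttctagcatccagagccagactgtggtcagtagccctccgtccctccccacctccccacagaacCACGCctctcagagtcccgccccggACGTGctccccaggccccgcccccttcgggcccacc
Slc16a1: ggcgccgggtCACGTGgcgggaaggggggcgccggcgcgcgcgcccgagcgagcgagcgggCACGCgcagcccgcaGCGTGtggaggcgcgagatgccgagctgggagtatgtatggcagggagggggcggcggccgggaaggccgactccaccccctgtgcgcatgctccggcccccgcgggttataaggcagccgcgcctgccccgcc
Hif1a: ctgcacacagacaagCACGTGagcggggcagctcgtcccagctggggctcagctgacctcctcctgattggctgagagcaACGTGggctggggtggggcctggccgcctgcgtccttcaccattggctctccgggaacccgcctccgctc
P4ha2, Pfkp, Ldha and Slc16a1 held 3 in the stretch shown, Bnip3 held 4 and Pgk1, Slc2a1 and Hif1a held 2. The stretches lie at chr11:54100774-54100923 (P4ha2, plus strand), chr7:138909507-138909656 (Bnip3, minus strand), chr13:6648772-6648921 (Pfkp, minus strand), chrX:106186940-106187099 (Pgk1, plus strand), chr7:46845654-46845803 (Ldha, plus strand), chr4:119108595-119108744 (Slc2a1, plus strand), chr3:104638454-104638663 (Slc16a1, plus strand) and chr12:73907717-73907866 (Hif1a, plus strand) (all GRCm38.p6). Those of P4ha2, Ldha and Hif1a lie wholly inside the gene as the deposited table bounds it, and those of Bnip3, Pfkp and Slc2a1 partly. For all of these the RefSeq start used is internal to those bounds.

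Glucose enters the cell through the transporters coded by Slc2a1 and Slc2a3, and these 2 genes differed. Slc2a3 (chromosome 6, 122727809 to 122801640, minus strand) had 181, 211 and 196 FPKM with CpdA, against 303, 277 and 294 FPKM in medium. All 3 CpdA libraries were lower than every medium library, with CpdA replicate 2 nearest to them. Its log2 fold change was -0.58 ± 0.07 (SE, edgeR adjusted p = 0.00113). Slc2a1 had 135.9, 134.6 and 134.4 FPKM with CpdA and 137.9, 142.6 and 135.1 FPKM in medium. The groups overlapped, and the log2 fold change was -0.05 with a 95% interval of -0.11 to 0.01 (edgeR adjusted p = 0.222). The ratio of Slc2a3 to Slc2a1, per length, was 1.34, 1.57 and 1.46 in CpdA libraries and 2.20, 1.94 and 2.18 in medium libraries. The mean difference in the log2 ratio was -0.54, without overlap (exact permutation p = 0.1, two-sided, the smallest that 3 against 3 libraries can give). Over both genes together, FPKM summed to 331 ± 14 with CpdA and 430.2 ± 10.7 in medium (SD, n = 3 each).

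Lactate is carried by the transporters coded by Slc16a1 and Slc16a3, and these moved in opposite directions. Slc16a1 (chromosome 3, 104638668 to 104658462, plus strand), a carrier of lactate and pyruvate, had 33.9, 36.4 and 38.0 FPKM with CpdA, against 30.2, 31.8 and 31.0 FPKM in medium, each CpdA library above each medium library. The log2 fold change was 0.21 ± 0.04 (SE, edgeR adjusted p = 1.1e-05). Slc16a3, the form known for lactate export from glycolytic cells, had 115.0, 114.3 and 114.7 FPKM with CpdA and 127.2, 131.9 and 125.5 FPKM in medium, a log2 fold change of -0.17 ± 0.03 (SE, edgeR adjusted p = 4.6e-06). Corrected for GC content and length, Slc16a3 was still lower, at -0.09 (adjusted p = 0.00774). The ratio of Slc16a3 to Slc16a1 averaged 3.18 ± 0.19 with CpdA and 4.14 ± 0.08 in medium (SD, n = 3 each), without overlap (exact permutation p = 0.1, two-sided).

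Hexokinase traps glucose in the cell as glucose 6-phosphate. Hk1 (chromosome 10, 62268855 to 62379908, minus strand), the form of most tissues, had 123.9, 128.4 and 125.1 FPKM with CpdA, against 157.5, 157.2 and 157.9 FPKM in medium. The medium libraries lay within 1 FPKM of each other and far above all CpdA libraries, and the log2 fold change was -0.33 ± 0.03 (SE, edgeR adjusted p = 7.9e-13). Hk2, the form induced by HIF and by growth signals, had 74.6, 76.1 and 77.02 FPKM with CpdA and 84.3, 80.9 and 79.8 FPKM in medium. Its log2 fold change was -0.11 ± 0.03 (SE, edgeR adjusted p = 0.00163), but -0.05 and not called once corrected for GC content and length (adjusted p = 0.189). Hk1 made up 62.4% ± 0.4 of the hexokinase FPKM of both genes with CpdA and 65.9% ± 0.6 in medium (SD, n = 3 each). The log2 ratio of Hk1 to Hk2 differed by -0.22, without overlap (exact permutation p = 0.1, two-sided). The form with the higher level had the larger change in this step.

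Phosphofructokinase catalyses the committed step of glycolysis, with liver-type, muscle-type and platelet-type subunits coded by Pfkl, Pfkm and Pfkp. Pfkm (chromosome 15, 98092589 to 98132447, plus strand) had 19.0, 20.2 and 18.9 FPKM with CpdA, against 29.4, 27.9 and 28.1 FPKM in medium. Every CpdA library was lower than every medium library by over 7 FPKM, with a log2 fold change of -0.56 ± 0.04 (SE, edgeR adjusted p = 3.9e-13). Pfkp, the subunit with the highest level, had 203.5, 212.5 and 213.1 FPKM with CpdA and 243.3, 240.5 and 238.0 FPKM in medium, a log2 fold change of -0.21 ± 0.03 (SE, edgeR adjusted p = 3.0e-08). Pfkl had 98.9, 94.4 and 99.7 FPKM with CpdA and 102.9, 104.9 and 100.1 FPKM in medium. Its log2 fold change was -0.08 ± 0.03 (SE, edgeR adjusted p = 0.0292), and the call was lost without CpdA replicate 2 (adjusted p = 0.183), without medium replicate 1 (0.0749) and without medium replicate 2 (0.122). It was also lost with scaling by library size alone (0.0577), with no count filter (0.0596) and after correction for GC content and length, where the log2 fold change was -0.01 (0.792). Pfkm held 5.93% ± 0.23 of the summed FPKM of the 3 subunit genes with CpdA and 7.66% ± 0.17 in medium, and Pfkl 29.9% ± 1.0 with CpdA and 27.6% ± 0.4 in medium (SD, n = 3 each). Pfkp held 64.2% with CpdA and 64.7% in medium. The log2 ratios differed by -0.48 for Pfkm over Pfkl, -0.36 for Pfkm over Pfkp and 0.13 for Pfkl over Pfkp, each without overlap (exact permutation p = 0.1, two-sided).

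Aldolase splits fructose 1,6-bisphosphate into 2 trioses, and its genes showed the widest gap. Aldoc (chromosome 11, 78322968 to 78327781, plus strand), best known as the brain form, had 26.1, 30.8 and 27.7 FPKM with CpdA, against 46.9, 43.1 and 44.5 FPKM in medium. Its log2 fold change of -0.68 ± 0.05 (SE, edgeR adjusted p = 3.1e-13) was the lowest of the 40 genes. Aldoa, the muscle and general form, had 1917, 1848 and 1881 FPKM with CpdA and 1999.5, 2067 and 2039 FPKM in medium, a log2 fold change of -0.12 ± 0.02 (SE, edgeR adjusted p = 6.9e-05). Aldoc was therefore a small part of the aldolase transcripts, at 1.48% ± 0.15 of the summed FPKM with CpdA and 2.16% ± 0.13 in medium (SD, n = 3 each). The log2 ratio of Aldoc to Aldoa differed by -0.56, without overlap (exact permutation p = 0.1, two-sided).

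**Figure D2:**
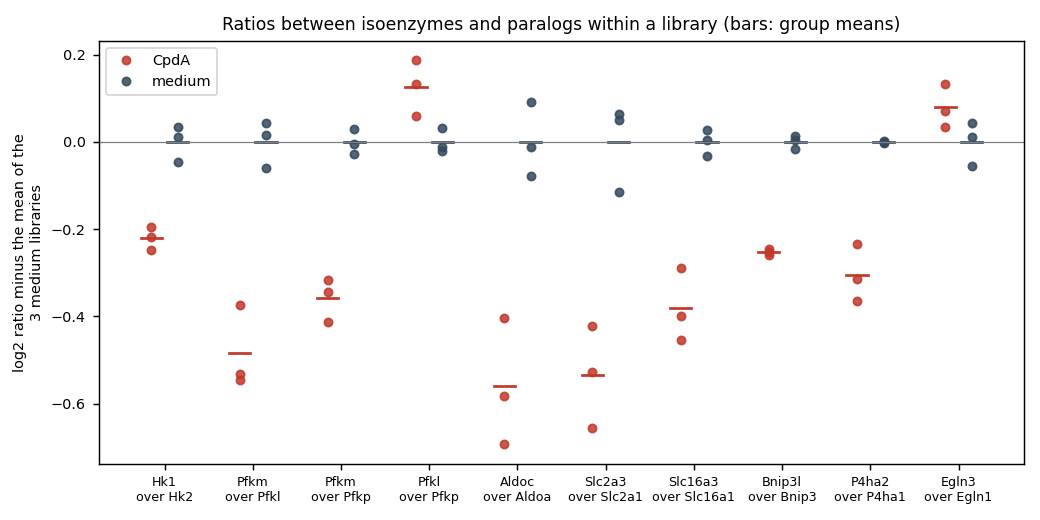
For each pair of genes, points show the log2 ratio of counts per length in each library minus the mean of the medium libraries, CpdA left in red and medium right in dark blue, with bars at the group means. The CpdA points lie below the medium points for 8 of the 10 pairs. They lie above for Pfkl over Pfkp and overlap for Egln3 over Egln1.

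Ratios were compared for 10 pairs in all, and the groups did not overlap for 9 of them. The phosphofructokinase pairs share genes. Among single tested genes 43.9% did not overlap in either direction, and no such share was computed for gene pairs. Adjusted over the 10 pairs, the exact p was 0.111 for those 9 and 0.2 for Egln3 over Egln1, so no pair could pass 0.05 at this number of libraries. No difference changed sign when any 1 library was left out. Ratios within a library do not depend on the scaling between libraries. They were not recomputed with the GC content and length correction, which moved single members such as Slc16a3 and Hk2.

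Each of the other enzyme steps is represented by 1 gene. Gapdh, which makes the NADH of the pathway, had 4725, 4629 and 4555 FPKM with CpdA, against 5271, 5300.4 and 5343 FPKM in medium, a log2 fold change of -0.20 ± 0.02 (SE, edgeR adjusted p = 7.8e-10). It had the highest level of the 40 genes, and its groups were far apart relative to their spread. Gpi1, the glucose 6-phosphate isomerase, and Pgam1, a phosphoglycerate mutase, each had log2 fold changes of -0.19. The enolase gene Eno1 (-0.11), the pyruvate kinase gene Pkm (-0.12), the phosphoglycerate kinase gene Pgk1 (-0.09) and the triosephosphate isomerase gene Tpi1 (-0.08) were also lower. Eno1 and Pkm were at -0.07 after the GC content and length correction, and were still called (adjusted p = 0.0165 and 0.00791). Ldha, which turns pyruvate into lactate, had 2055, 2019.8 and 2019 FPKM with CpdA and 2068, 2118 and 2084 FPKM in medium. The groups did not overlap, but the log2 fold change of -0.05 (95% interval -0.10 to -0.004) was not called (edgeR adjusted p = 0.0869); it was called under limma-voom (adjusted p = 0.0190), under a filter that needed 5 CPM in 3 libraries (0.0275) and after the GC content and length correction (0.0474). The 7 enzyme genes above a mean of 1000 FPKM had log2 fold changes from -0.20 to -0.05 (median -0.11), and the 8 below it from -0.68 to -0.08 (median -0.20), a division chosen after the levels were seen. The 15 enzyme genes together took 3.01% ± 0.02 of all counts with CpdA and 3.29% ± 0.02 in medium (SD, n = 3 each).

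Some of these genes have near-identical copies in the genome. Annotated genes that hold at least 200 bases at 95% identity or more were found for 10 members. Gapdh had 75 of them, and each of the others had 1 or 2. The counts assigned to these copies came to 0.0306% to 0.741% of the member's own counts, and adding them to the member changed no call. Exons of 12 members overlap those of another gene in the table, nearly always on the opposite strand. For Ankrd37 the neighbour Ufsp2, which shares 57 exon bases with it, had 11027 counts over the 6 libraries and Ankrd37 had 1198. Ankrd37 is therefore uncertain, since whether reads were counted by strand was not given in the sources used here. Senp1, with 16370 counts against 9514 for Pfkm, shares only 18 exon bases with it, on the opposite strand. Gm26513, with 144 counts, shares 341 exon bases with Pfkm on the same strand. The longest overlap was that of Pfkp with Pitrm1 on the opposite strand, 748 exon bases, with 8621 counts for Pitrm1 and 145925 for Pfkp.

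**Figure D3:**
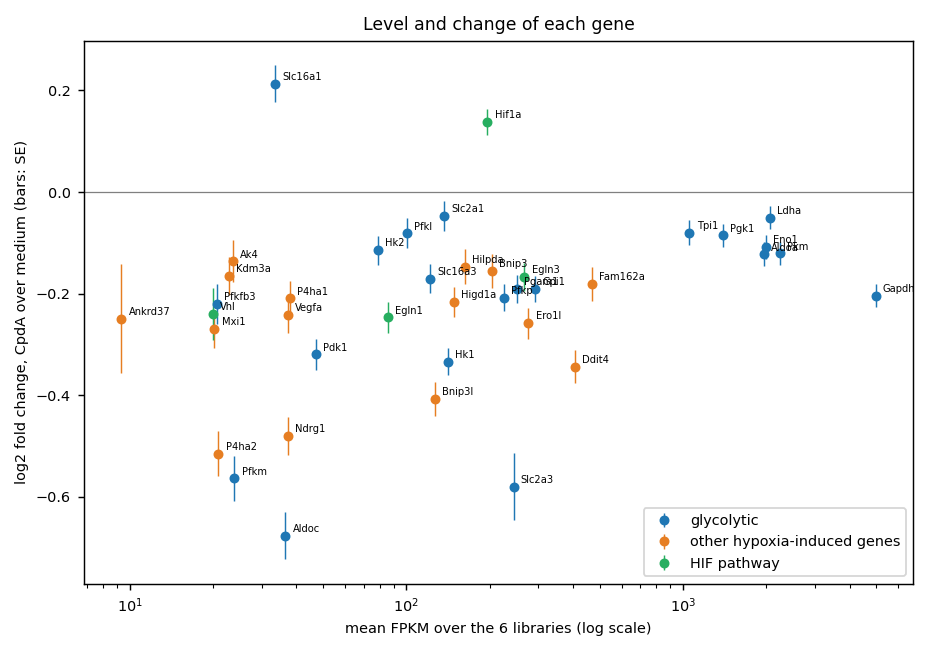
Each point is a gene, with its mean FPKM over the 6 libraries on a log x axis and its log2 fold change of CpdA over medium on the y axis, with SE bars. The most abundant enzyme genes lie between -0.20 and -0.05, the lowest points are Aldoc, Slc2a3 and Pfkm, and Slc16a1 and Hif1a lie above 0.

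The 2 regulators of flux fell. Pdk1, a kinase that inhibits pyruvate dehydrogenase and so keeps pyruvate out of the mitochondrion, had 41.0, 42.1 and 42.8 FPKM with CpdA, against 52.8, 50.6 and 52.7 FPKM in medium, a log2 fold change of -0.32 ± 0.03 (SE, edgeR adjusted p = 6.2e-11). Pfkfb3, which makes fructose 2,6-bisphosphate, the activator of phosphofructokinase, had 19.3, 19.9 and 18.3 FPKM with CpdA and 23.2, 21.8 and 21.6 FPKM in medium, a log2 fold change of -0.22 ± 0.04 (SE, edgeR adjusted p = 2.7e-05). For both, each CpdA library was below each medium library.

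Among the HIF pathway members, Hif1a was higher with CpdA, and Egln1, Egln3 and Vhl, which limit its product, were lower. Further genes of this pathway, described below, went both ways. Hif1a (chromosome 12, 73901375 to 73947530, plus strand) had 207.8, 205.2 and 206.3 FPKM with CpdA, against 183.1, 188.9 and 186.9 FPKM in medium, each CpdA library above each medium library. Its log2 fold change was 0.14 ± 0.03 (SE, edgeR adjusted p = 4.1e-05). Egln1 had 76.96, 77.09 and 82.3 FPKM with CpdA and 90.8, 95.9 and 91.8 FPKM in medium, a log2 fold change of -0.25 ± 0.03 (SE, edgeR adjusted p = 3.0e-08). Egln3, which HIF also induces, had 245, 257 and 256 FPKM with CpdA and 284, 280.3 and 281 FPKM in medium, a log2 fold change of -0.17 ± 0.03 (SE, edgeR adjusted p = 3.9e-06). Vhl had 17.9, 19.9 and 17.3 FPKM with CpdA and 22.3, 21.8 and 20.6 FPKM in medium, a log2 fold change of -0.24 ± 0.05 (SE, edgeR adjusted p = 0.000271). In none of the 3 did the groups overlap. The ratio of Egln3 to Egln1 overlapped between groups, at 3.21 ± 0.11 with CpdA and 3.04 ± 0.11 in medium (SD, n = 3 each; exact permutation p = 0.2, two-sided); the difference in the log2 ratio was 0.08, and 0.05 without CpdA replicate 2 or without medium replicate 2.

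All 15 other hypoxia-induced genes had negative log2 fold changes, from -0.51 to -0.14, and 14 were called. The furthest was P4ha2 (chromosome 11, 54100095 to 54131665, plus strand), a collagen prolyl hydroxylase subunit, with 17.5, 17.1 and 17.3 FPKM with CpdA, against 25.4, 23.7 and 24.6 FPKM in medium. Its log2 fold change was -0.51 ± 0.04 (SE, edgeR adjusted p = 5.2e-12). P4ha1, the other such subunit, changed by -0.21 ± 0.04 (SE, edgeR adjusted p = 6.9e-06), and the ratio of P4ha2 to P4ha1 averaged 0.489 ± 0.022 with CpdA and 0.604 ± 0.00053 in medium (SD, n = 3 each; exact permutation p = 0.1, two-sided). Ndrg1, a gene of stress and differentiation, had 29.6, 33.4 and 31.0 FPKM with CpdA and 45.3, 42.4 and 42.7 FPKM in medium, a log2 fold change of -0.48 ± 0.04 (SE, edgeR adjusted p = 9.3e-13).

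The mitophagy receptor genes Bnip3 and Bnip3l are close relatives that HIF induces. Bnip3l had 105.1, 116.6 and 107.3 FPKM with CpdA, against 148.4, 140.4 and 144.9 FPKM in medium, a log2 fold change of -0.41 ± 0.03 (SE, edgeR adjusted p = 2.7e-12). Bnip3 had 185.6, 204.8 and 190.6 FPKM with CpdA and 222.7, 207.7 and 213.0 FPKM in medium, a log2 fold change of -0.16 ± 0.03 (SE, edgeR adjusted p = 0.000282), or -0.24 after the GC content and length correction (adjusted p = 1.9e-08). CpdA replicate 2 came close to the medium libraries for Bnip3. Their ratio was 0.566, 0.569 and 0.563 in CpdA libraries and 0.666, 0.676 and 0.680 in medium libraries, without overlap (exact permutation p = 0.1, two-sided).

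Ddit4, an inhibitor of mTORC1, had 339, 382 and 361 FPKM with CpdA and 466, 446 and 454 FPKM in medium, a log2 fold change of -0.34. Mxi1, an antagonist of MYC, had -0.27, and Ero1l, the oxidase that makes disulfide bonds in the endoplasmic reticulum, had -0.26. The angiogenic growth factor gene Vegfa (-0.24), the respiratory chain factor Higd1a (-0.22), Fam162a (-0.18), the histone demethylase gene Kdm3a (-0.17), the lipid droplet gene Hilpda (-0.15) and the mitochondrial adenylate kinase gene Ak4 (-0.14) fell as well. Ak4 was not called without CpdA replicate 1 (adjusted p = 0.0812), CpdA replicate 3 (0.0844) or medium replicate 3 (0.0528). Ankrd37 had the lowest level of the 40 genes, 8.53 ± 0.78 FPKM with CpdA and 10.1 ± 0.8 FPKM in medium (SD, n = 3 each), and its log2 fold change of -0.25 ± 0.11 (SE) was not called (edgeR adjusted p = 0.0708), though it was without CpdA replicate 2 (adjusted p = 0.0330).

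Set side by side, the median log2 fold change was -0.17 for the 21 glycolytic genes and -0.24 for the 15 other hypoxia-induced genes. Both ranges overlapped widely, from -0.68 to 0.21 and from -0.51 to -0.14, and the difference was not tested, since the members were chosen with results of these data known. Of the glycolytic genes 18 were lower, 1 was higher and 2 were not called, and of the others 14 were lower and 1 was not called. Among all tested genes 16.7% were lower and 16.5% higher. The mean log2 level relative to the medium libraries was -0.21, -0.18 and -0.19 for the glycolytic genes and -0.30, -0.20 and -0.27 for the other hypoxia-induced genes in CpdA replicates 1, 2 and 3. In medium replicates 1, 2 and 3 it was 0.009, 0.0006 and -0.010 for the glycolytic genes and 0.04, -0.04 and -0.002 for the other genes. After the GC content and length correction the glycolytic median was -0.11 and that of the other hypoxia-induced genes -0.24.

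**Figure D4:**
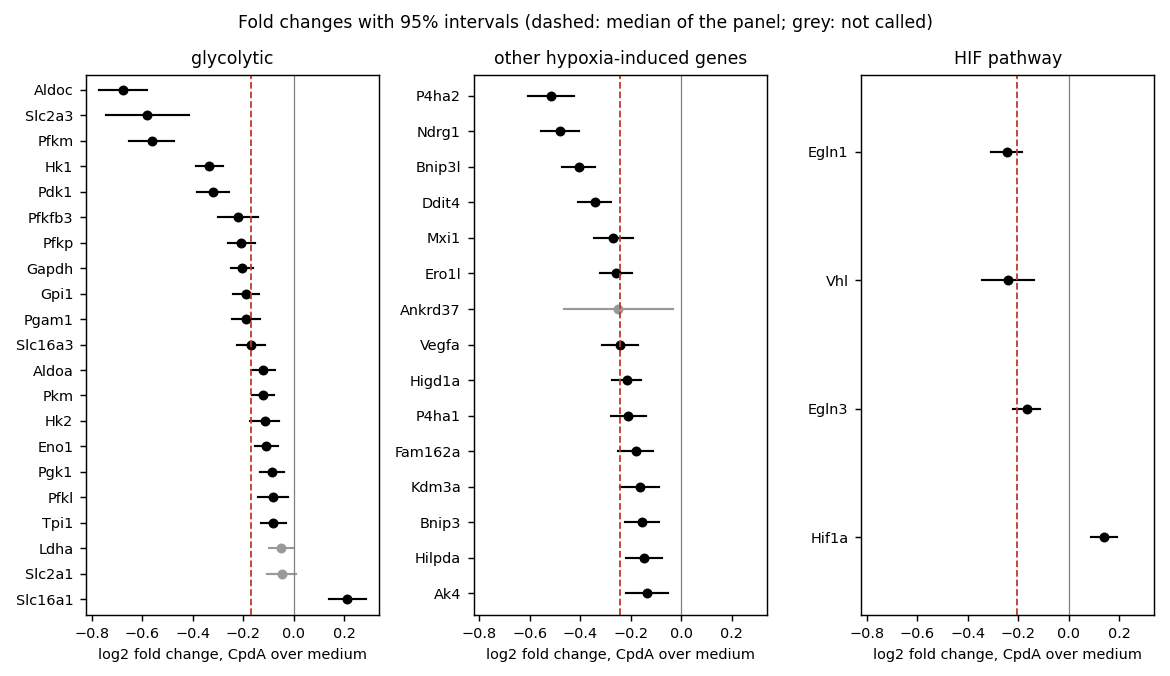
Each point is a gene's log2 fold change of CpdA over medium with its 95% interval, in panels for the 21 glycolytic genes, the 15 other hypoxia-induced genes and the 4 HIF pathway genes, with a dashed line at each panel's median (-0.17, -0.24 and -0.20). Grey marks the 3 genes not called, Ldha, Slc2a1 and Ankrd37.

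Lists of other genes from the same and neighbouring pathways were read from the same fit, in which 16.7% of all tested genes were lower and 16.5% higher. Like the members, these lists were chosen with earlier results of these data known, so they are not an independent check. Of 16 tested genes of other glycolytic isoforms and side reactions, 5 were lower and 1 higher, with a median log2 fold change of -0.21. Pgm2, a phosphoglucomutase, fell by 0.31 on the log2 scale, with 82.0 ± 0.9 FPKM with CpdA and 101.1 ± 1.1 FPKM in medium (SD, n = 3 each), and Pfkfb4, a relative of Pfkfb3, had -0.49. The one that rose was Adpgk, an ADP-dependent glucokinase (0.21). Among 33 tested genes of a further list of hypoxia-induced genes 21 were lower and 2 higher (Rab20 and Angptl4), with a median of -0.21. For both Rab20 and Angptl4 the groups overlapped. The changed genes of this list with the smallest p were Selenbp1 (-0.96), whose reads may be shared with its close relative Selenbp2, and the transcription factor gene Bhlhe40 (-0.44). Bhlhe40 had 168 ± 3.4 FPKM with CpdA and 225 ± 0.80 FPKM in medium (SD, n = 3 each).

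Calls in the lists of mitochondrial and side pathways went both ways, and with so few genes in each, their counts are to be read against the 16.7% lower and 16.5% higher of all tested genes. In the pyruvate entry list 3 of 13 genes were lower and 1 higher, with a median log2 fold change of -0.005. The pyruvate dehydrogenase phosphatase regulator Pdpr had -0.40, the kinase gene Pdk3 -0.12 and the dehydrogenase subunit Dld 0.11. In the TCA cycle list 4 of 16 genes were higher, among them Dlst (0.21) and Idh3a (0.21), and 1, Suclg1 (-0.09), was lower, with a median of 0.03. In the pentose phosphate list 4 of 8 were higher, among them Rpia (0.22) and Taldo1 (0.12), and 1, the transketolase gene Tkt (-0.10), was lower.

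Of 13 further HIF pathway genes 2 were higher and 4 lower, with a median log2 fold change of 0.006, beside 16.5% higher and 16.7% lower among all tested genes. Epas1, which codes for another HIF alpha subunit, had 12.3 ± 0.6 FPKM with CpdA and 9.24 ± 0.50 FPKM in medium (SD, n = 3 each), a log2 fold change of 0.40 ± 0.05 (SE, edgeR adjusted p = 2.2e-08), and the elongin C gene Tceb1 had 0.18. Hif3a, an alpha subunit that can antagonise the others, had -0.43, and Arnt, a beta subunit that pairs with alpha subunits, -0.21. In the glucose sensing list 3 of 4 tested genes were higher, among them Txnip, an inhibitor of glucose uptake (0.24), and Mlx, a partner of the glucose-responsive transcription factors (0.22). In the list of MYC and mTORC1 regulators 3 of 9 were higher, among them Akt1 (0.19) and Rheb (0.17), and 2, Akt2 (-0.15) and Max (-0.13), were lower.

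**Figure D5:**
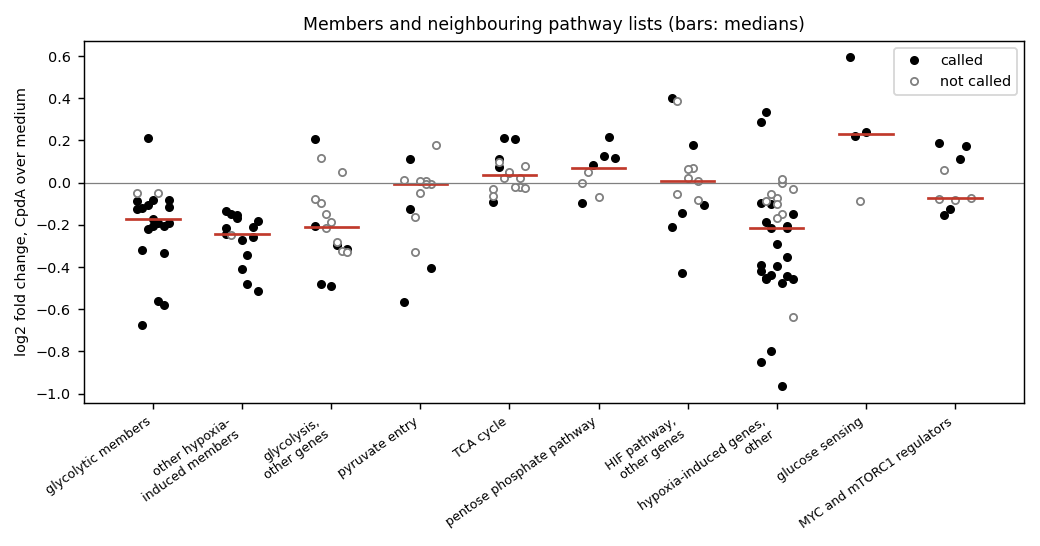
Each point is a tested gene's log2 fold change of CpdA over medium, filled where it was called, with a bar at the median of each list. The medians of the glycolytic members, the other hypoxia-induced members and the 2 further lists of the same kinds lie between -0.24 and -0.17, and those of the other lists between -0.07 and 0.23. Members and lists were chosen with earlier results of these data known.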

How the data were processed

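Counts of reads per gene were used as deposited, raw and with 1 column per library per the file headers. FPKM values were computed by the authors, and count, deposited gene length and library total gave them back within a relative difference of 1.9e-07. CASAVA 1.8 and the genome build GRCm38 (mm10) are listed per the submitters' processing notes, and aligner, counter, annotation and strand setting were not given in the sources used here. Positions of all 40 members overlapped those in GENCODE vM21 (GRCm38). Levels are deposited FPKM, and marker sums are CPM.

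Counts were tested over all genes in R 4.3.3 with the quasi-likelihood test of edgeR 4.0.16 (TMM, robust, filterByExpr with a minimum count of 10 and total of 15) and adjusted over 13507 genes, and calls were made at 0.05. The steps were tested on simulated data. The SE of a log2 fold change is its size divided by the square root of the F statistic. Ratios used a prior of 0.5 counts and an exact permutation test. Alternatives used DESeq2 1.42.0, limma 3.58.1, other scalings and filters, the replicate number as a block, removal of smooth trends with GC content and length, and each library left out in turn. GC content was known for 98.9% of genes. Members and lists were chosen with earlier results of these data known, and all members and the 2 changed genes of smallest p in each direction of each further list are named, as is the marker of highest level in lists described. Cd3e, Cd4, Senp1, Gm26513, Pitrm1, Ufsp2 and Selenbp2 are named only for checks.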

Additional observations from a re-analysis of the deposited data

How the results depend on the processing

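The 2 higher members and the sign of all 40 log2 fold changes held under all 15 alternatives run across genes, with 38 negative in each. The number of lower members was 31 to 36, and 4483 genes called in all became 3648 with DESeq2, the fewest of the alternatives that kept all libraries, and 4538 with library size alone, the most. With 1 library left out, 34 to 35 members were lower, 2 were higher and 3660 to 4336 genes were called. The calls of 33 members held under every alternative run; those of Hk2, Pfkl, Tpi1, Eno1 and Ak4 were lost under at least 1, and those of Ldha and Ankrd37 were gained. Same-numbered libraries did not deviate together (correlations of -0.02, -0.01 and -0.0006), so no pairing by number was seen. The check cannot show that the libraries are unpaired, since a small shared effect would go unseen. With the replicate block 33 members were lower and 2 higher, and 3936 genes were called; Pfkl (adjusted p = 0.0963) and Tpi1 (0.0672) were then not called. With the replicate block and GC and length trends removed together, 31 were lower. Adding near-identical copies, chosen after the data were seen, left 35 lower and 2 higher. Depth was lowest for Ankrd37, whose lowest library had 165 counts. The cause of the changes under GC and length correction was not tested.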
